A study of Mus musculus with 12 samples.

Results

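The genes of the Polycomb complexes were followed through the activation and differentiation of mouse B cells. The 10 genes were taken by Entrez identifier out of the 27179 genes in the count table: the PRC2 genes Ezh1 (14055), Ezh2 (14056), Eed (13626), Suz12 (52615), Jarid2 (16468) and Phf19 (74016), and the PRC1 genes Bmi1 (12151), Ring1 (19763), Rnf2 (19821) and Cbx7 (52609). All 10 passed the filter on low counts, as did 12750 genes in total. RNA-Seq had been performed on 12 libraries, 2 biological duplicates for each of 6 stages, all of splenic B cells from male mice aged 6 to 12 weeks, labelled C57BL/6 and described in the methods as of the C57BL/6 Pep3b background. Naive resting B cells received no treatment and were sorted as B220+IgM+ cells with high IgD and no TCRβ. The other 5 stages were cultured with 25 µg/ml LPS (lipopolysaccharide, a bacterial cell wall component that activates B cells through a Toll-like receptor), and activated cells that had not yet divided (CD69+) were sorted at 3 h, 10 h and 33 h. On day 4, 2 populations were sorted: expanded B cells, which were CD22+CD138-, and plasmablasts, the antibody-secreting cells, which were CD22-CD138+. The labels name no transgene or deletion in any group and do not tie the duplicates to animals or cultures, so the p-values below measure the spread between these samples.

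Polycomb proteins silence genes through chromatin. PRC2 trimethylates histone H3 at lysine K27 through a catalytic subunit that is either EZH1 or EZH2, held in a core with EED and SUZ12, whereas JARID2 and PHF19 are accessory subunits that bring the complex to its sites. PRC1 ubiquitinates histone H2A through RING1 or RNF2 (RING1B), with a PCGF partner such as BMI1, and its CBX subunits, CBX7 among them, bind the mark made by PRC2. EZH2 is best known in dividing cells and in germinal centre B cells, and EZH1 in resting cells.

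The promoters of the genes were read from RefSeq (GRCm38.p6, the same build as mm10), with a window of 250 bases before to 50 bases after each start site, and all 10 genes had such a window. For Ezh2, Phf19 and Cbx7 the start site of the window lies inside the annotated gene span, by 240, 377 and 38497 bases from its first base. The sequence before that first base was not searched for Phf19 and Cbx7. For Ezh2 the window reached only to 47595280, just past the first base at 47595270. The windows were searched on both strands for 4 octamers of the type bound by E2F, the factors that drive S phase genes (TTTCCCGC, TTTCGCGC, TTTGCCGC and TTTGGCGC), and for the CHR element TTTGAA of late cell cycle genes. Any of the octamers was held by 744 of 32851 windows in the genome (2.26%), and TTTGAA by 17.9%. An octamer was held by 3 of the 10 genes: Ezh2, Suz12 and Phf19. The pair of methyltransferase genes differed in this respect. A stretch of 100 bases is shown for each of the 3 genes with an octamer and for Ezh1, written 5′ to 3′ on the strand of the gene, with the octamer in capitals. The Ezh2 stretch (chr6:47595001-47595100, minus strand) runs from 70 bases before the start site to base 30 of the transcript and holds TTTGGCGC from base 4 of the transcript. The Ezh1 stretch (chr11:101226434-101226533, minus strand) covers the same distances and has no capitals. The stretches of Suz12 (chr11:79992856-79992955, plus strand) and Phf19 (chr2:34914127-34914226, minus strand) run from base -250 to base -151 and hold TTTCCCGC, which reads forward in Suz12 at base -219 and on the opposite strand in Phf19 at base -208. Given these start sites, the printed stretches of Ezh2 and Phf19 lie within the annotated spans of their genes.
Ezh2: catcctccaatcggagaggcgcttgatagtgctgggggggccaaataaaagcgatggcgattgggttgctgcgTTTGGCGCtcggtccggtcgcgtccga
Ezh1: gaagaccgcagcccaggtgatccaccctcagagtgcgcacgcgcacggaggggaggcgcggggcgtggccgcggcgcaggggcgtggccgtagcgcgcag
Suz12: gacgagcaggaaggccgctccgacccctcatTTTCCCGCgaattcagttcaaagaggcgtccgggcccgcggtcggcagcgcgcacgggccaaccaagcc
Phf19: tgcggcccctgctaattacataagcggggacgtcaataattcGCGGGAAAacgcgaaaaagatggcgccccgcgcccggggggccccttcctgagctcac
A match of letters is a description of the window and not a binding site. TTTGAA lay in the windows of Eed, Suz12 and Cbx7, likewise 3 of the 10. Only the search of Ezh1 and Ezh2 was laid down in the design, and the other 8 genes were added after their values had been seen.

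Total counts per library ranged from 23026619 to 60585587, so that 3 counts, taken as the floor, stood for 0.0495 to 0.130 CPM (counts scaled by the library total; counting error only). The lowest count of any of the 10 genes in any library was 238 for Phf19, far above that floor. All 7 B cell markers on a fixed list were above the floor in both duplicates of every stage, and the 5 plasmablast markers rose from a summed 362 to 389 CPM in naive cells to 16396 to 16909 in plasmablasts. The 2 naive libraries, although sorted, also held transcripts typical of other cells. The 8 myeloid markers summed to 279 and 123 CPM in the naive duplicates, against 0.868 to 38.9 at all later stages. Not all of them were highest in naive cells, since Itgam and Adgre1 had their highest stage means in expanded B cells. The 5 erythroid markers found in the table summed to 196 and 146 CPM in naive cells, against at most 2.11 later. The 8 T cell markers summed to 3.99 and 4.45 in naive cells and to at most 8.15 in any library. Every comparison with naive cells below moves together with these values, and their part in the results was not tested. In bulk libraries, fewer cells of a type and less RNA per cell cannot be told apart.

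Ezh2 and Ezh1, the alternative catalytic subunits of PRC2, moved in opposite directions and changed order. Levels are given as RPKM (counts divided by exon length and by library size, the latter scaled by TMM), the scale on which genes of different length can be set side by side. Ezh2, which lies on chromosome 6 (mm10, 47530274 to 47595270), had an RPKM of 11.2 and 13.3 (naive), 22.4 and 18.6 (3 h), 44.6 and 36.6 (10 h), 116 and 143 (33 h), 124 and 121 (expanded), and 60.1 and 61.8 (plasmablast). The levels climbed without overlap from naive cells to 33 h, reached overlapping ranges in the 33 h and expanded libraries, and were lower again in plasmablasts. Ezh1, on chromosome 11 (mm10, 101191115 to 101226463), had an RPKM of 30.1 and 29.3 (naive), 22.9 and 23.1 (3 h), 17.3 and 19.7 (10 h), 12.5 and 8.91 (33 h), 7.14 and 7.13 (expanded), and 8.46 and 9.39 (plasmablast). It was thus highest in naive cells and lowest in expanded B cells. In the order of stage means of Ezh1 (naive, 3 h, 10 h, 33 h, plasmablast, expanded) only the neighbours 33 h and plasmablast overlapped, and in that of Ezh2 (33 h, expanded, plasmablast, 10 h, 3 h, naive) only 33 h and expanded. The stage means spanned 10.6-fold for Ezh2 and 4.17-fold for Ezh1.

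**Figure D1:**
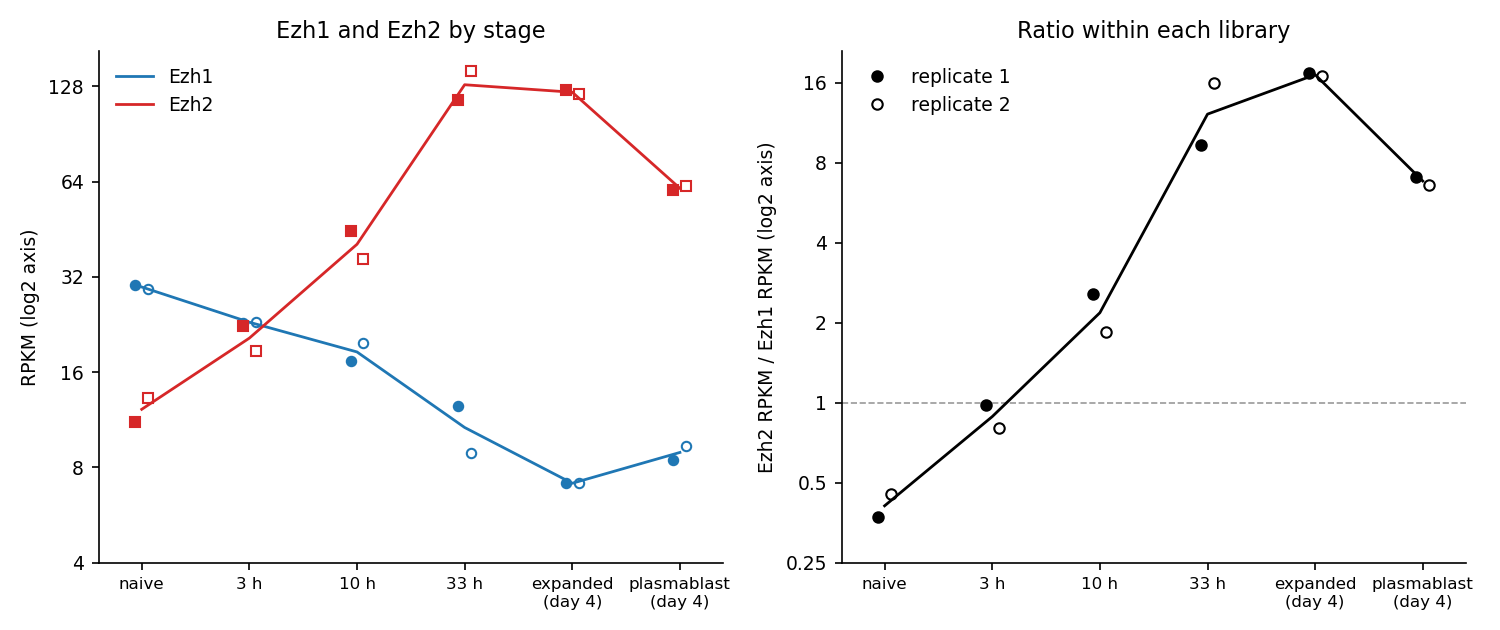
RPKM of Ezh1 and Ezh2 at each stage (left) and the ratio of Ezh2 to Ezh1 within each library (right), both on log2 axes; filled symbols are replicate 1, open symbols replicate 2, and lines join the stage means. Expanded B cells and plasmablasts are 2 populations of day 4, so the last line segment is not a step in time. The lines cross between 3 h and 10 h, and the ratio runs from 0.371 in a naive library to 17.4 in an expanded library.

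The ratio of Ezh2 to Ezh1 was then taken within each library, where the scaling between libraries cancels. It was 0.371 and 0.452 (naive), 0.977 and 0.806 (3 h), 2.57 and 1.85 (10 h), 9.30 and 16.0 (33 h), 17.4 and 16.9 (expanded), and 7.10 and 6.58 (plasmablast). Naive cells therefore held more Ezh1 than Ezh2 mRNA per length, the 3 h libraries held somewhat less Ezh2 than Ezh1, and from 10 h onwards Ezh2 led. The stages took up 0.989 of the variance of the log2 ratio. In an exact permutation test over all 10395 ways to put the 12 libraries into 6 pairs (one-sided), p was 1e-04, the smallest it can be, and 0.000289 after adjustment over 3 ratios. The geometric stage means differed by 41.9-fold between expanded B cells and naive cells. Expressed as a share, Ezh2 made up 27% and 31.1% of the summed RPKM of the pair in naive cells, 90.3% and 94.1% at 33 h, and 87.7% and 86.8% in plasmablasts. The sum itself rose less than Ezh2, from a stage mean of 41.9 in naive cells and 43.5 at 3 h to 140.1 at 33 h, and was 69.9 in plasmablasts.

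Changes were tested between consecutive stages and over the whole course with edgeR's glmTreat against a fold change of 1.5, with Benjamini-Hochberg adjustment over all 12750 genes at 0.05 (termed DE). At the whole course from naive cells to plasmablasts, Ezh2 was DE upwards with a log2 fold change of 2.32 ± 0.14 (SE; adjusted p = 2.7e-08), and Ezh1 DE downwards with -1.74 ± 0.14 (adjusted p = 1.1e-06). Ezh2 rose at 2 consecutive transitions, by 0.99 ± 0.13 from 3 h to 10 h (adjusted p = 0.0048) and by 1.67 ± 0.13 from 10 h to 33 h (adjusted p = 7.5e-06). The former call was lost without replicate 2 at 3 h (adjusted p = 0.0604) or replicate 1 at 10 h (adjusted p = 0.0656). From naive cells to 3 h the log2 fold change was 0.75 ± 0.14, which did not pass glmTreat (adjusted p = 0.0876). A change of any size passed edgeR's F-test at that step (adjusted p = 2.6e-04), and DESeq2's Wald test against no change called it too. Ezh2 then fell by 1.01 on the log2 scale from expanded B cells to plasmablasts (SE 0.13, adjusted p = 0.0037). Ezh1 was DE at none of the 5 consecutive transitions by glmTreat, and its log2 fold changes were -0.37, -0.31, -0.79, -0.59 and 0.32 in order. The largest of these, from 10 h to 33 h, had an adjusted p of 0.122 (edgeR) and passed without replicate 1 at 33 h, with -1.06 and an adjusted p of 0.0023. Its unadjusted p was 0.022, under 0.05 at this transition alone. A change of any size in Ezh1 passed edgeR's F-test at 3 of the 5 transitions, from naive cells to 3 h, from 10 h to 33 h and from 33 h to expanded B cells, with adjusted p from 0.000381 to 0.0229. DESeq2's Wald test called Ezh1 from 10 h to 33 h. Unlike glmTreat, it tests against no change and then keeps estimates beyond 1.5-fold, a weaker demand.

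Genes of the cell cycle list, 15 genes of replication and mitosis, moved alongside Ezh2 for part of the course. From 10 h to 33 h all 15 were DE upwards, against 10.1% of all genes tested. Their summed level went from 1766 and 1403 to 6315 and 7618 CPM, before the cells had divided. From expanded B cells to plasmablasts 0 of the 15 were DE (edgeR glmTreat), against 13.9% of all genes upwards and 12.2% downwards. Of the 15, 2 fell at an unadjusted glmTreat p under 0.05 and 5 by the adjusted F-test for a change of any size. That F-test called 3469 of all genes upwards and 3787 downwards. The 15 genes had a median log2 fold change of -0.19 with TMM scaling. Their summed levels, scaled by the library total alone, were 6432 and 6392 against 4491 and 4373 CPM. Scaling by library size alone shifted the median log2 fold change of all genes by -0.34 relative to TMM at this step, so the 2 measures differ. Ezh2, by contrast, was DE downwards there. The genes whose log2 RPKM most resembled that of Ezh2 over the 12 libraries, compared across 8612 genes whose mean log2 CPM was at least 3, were Uhrf1 (Pearson's r 0.989), Fignl1 (0.989), Ppil1 (0.988), Slc25a13 (0.987) and Mcm2 (0.986). Uhrf1 maintains DNA methylation at replication and Mcm2 is a subunit of the replicative helicase. For Ezh1 they were Pcif1 (0.998), an mRNA cap methyltransferase, Papolg (0.987), a poly(A) polymerase, Rab11fip2 (0.987), Zxdc (0.986) and 2310015A10Rik (0.983). These correlations describe libraries that share stages and a scaling. By Spearman correlation 0 of the 5 genes were shared for Ezh2 and 1, Pcif1, for Ezh1.

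**Figure D2:**
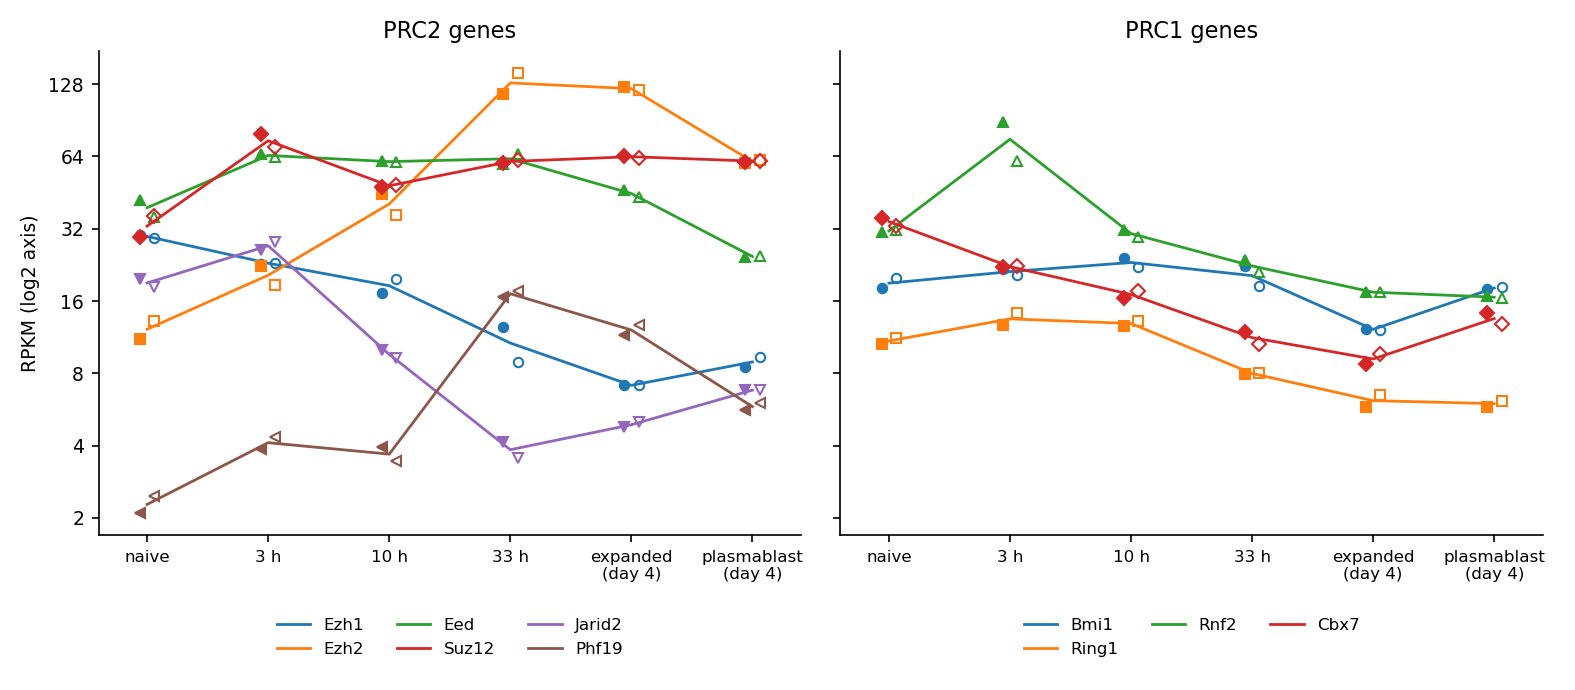
RPKM of the 6 PRC2 genes (left) and the 4 PRC1 genes (right) by stage, on a log2 axis; filled symbols are replicate 1, open symbols replicate 2, and lines join the stage means. Ezh2 and Phf19 peak at 33 h, Suz12 and Rnf2 at 3 h, and Ezh1 and Cbx7 are highest in naive cells.

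The stage means of the core partners spanned 2.27-fold for Suz12 and 2.63-fold for Eed, against the 10.6-fold and 4.17-fold of Ezh2 and Ezh1. Suz12 (chromosome 11, 79993106 to 80034123) had an RPKM of 29.4 and 36.2 (naive), 79.0 and 69.8 (3 h), 47.9 and 48.7 (10 h), 60.2 and 61.8 (33 h), 64.3 and 63.3 (expanded), and 60.9 and 61.5 (plasmablast). Both naive libraries lay below all later ones. The rise to 3 h was DE, at 1.18 ± 0.10 on the log2 scale (edgeR adjusted p = 2.1e-05), and so was the whole course, with 0.90 ± 0.10 (adjusted p = 0.0020), although the latter was lost when libraries were scaled by their size alone (0.62, adjusted p = 0.268). Eed (chromosome 7, 89954654 to 89980976), the subunit that binds trimethylated H3K27, had an RPKM of 42.3 and 36.0 (naive), 65.7 and 63.5 (3 h), 61.1 and 60.6 (10 h), 59.7 and 65.5 (33 h), 46.5 and 43.2 (expanded), and 24.3 and 24.7 (plasmablast). It was DE only between expanded B cells and plasmablasts, where it fell by 0.87 on the log2 scale (SE 0.10, edgeR adjusted p = 0.0061, and 0.0537 without replicate 1 of the expanded B cells). The early difference, 0.72 ± 0.09 to 3 h, did not pass glmTreat (adjusted p = 0.0565). It passed edgeR's F-test for a change of any size (adjusted p = 1.5e-05) and was called by DESeq2. The ratio of Suz12 to Eed was accordingly not constant. It was 0.695 and 1.01 in naive cells and 2.50 and 2.49 in plasmablasts, with values from 0.783 to 1.47 at the stages between, and the stages took up 0.960 of the variance of its log2 value (exact permutation test, one-sided, p = 0.00241, adjusted p = 0.00361).

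From 10 h to 33 h and over the whole course, Jarid2 fell and Phf19, the other accessory subunit of PRC2, rose. Jarid2 (chromosome 13, 44730774 to 44921643) had an RPKM of 19.8 and 18.3 (naive), 26.2 and 28.2 (3 h), 9.97 and 9.23 (10 h), 4.15 and 3.55 (33 h), 4.78 and 5.0 (expanded), and 6.83 and 6.79 (plasmablast). No stage overlapped another. It fell by 1.5 (SE 0.10, edgeR adjusted p = 1.4e-06) and then by 1.32 (SE 0.10, adjusted p = 1.4e-05) on the log2 scale at the steps from 3 h to 10 h and to 33 h, and by 1.48 over the whole course. Phf19 (chromosome 2, 34893752 to 34914353), a PCL protein that binds trimethylated H3K36, had an RPKM of 2.09 and 2.47 (naive), 3.87 and 4.36 (3 h), 3.94 and 3.44 (10 h), 16.6 and 17.7 (33 h), 11.5 and 12.7 (expanded), and 5.61 and 6.02 (plasmablast). The 33 h libraries stood above all others. Phf19 was DE upwards from 10 h to 33 h with 2.22 ± 0.12 (edgeR adjusted p = 8.1e-08), and over the whole course with 1.36. The first of these was the largest consecutive change among the 10 genes. It fell by 1.06 from expanded B cells to plasmablasts (SE 0.12, adjusted p = 9.6e-04). Its rise to 3 h, 0.86 ± 0.13 (adjusted p = 0.0156), was the least stable call. It was lost with scaling by library size alone (0.66, adjusted p = 0.224), in a fit to only the 4 libraries compared (0.0704), without replicate 1 of the naive cells (0.121) and without replicate 2 at 3 h (0.113). Among the 3 PCL genes Phf1, Mtf2 and Phf19, which compete for the same place on PRC2, Phf19 held 5.96% of the summed RPKM in naive cells (stage mean) and 51.5% at 33 h. Phf1 went from a stage mean of 24.6 to 3.06 between those stages.

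The catalytic subunits of PRC1 did not exchange places. Rnf2 (chromosome 1, 151469398 to 151500991) had an RPKM of 31.1 and 31.5 (naive), 89.4 and 61.5 (3 h), 31.5 and 29.6 (10 h), 23.7 and 21.1 (33 h), 17.4 and 17.4 (expanded), and 16.7 and 16.5 (plasmablast). The 3 h duplicates were apart from each other and both above all other libraries. Rnf2 rose by 1.27 ± 0.14 to 3 h (log2, edgeR adjusted p = 1.0e-04), fell by 1.30 to 10 h (SE 0.14, adjusted p = 1.3e-04), and was lower by the end of the course, at -0.92 ± 0.14 (adjusted p = 0.0091). Ring1 (chromosome 17, 34020792 to 34024680) had an RPKM of 10.6 and 11.2 (naive), 12.7 and 14.2 (3 h), 12.6 and 13.2 (10 h), 7.93 and 8.05 (33 h), 5.80 and 6.52 (expanded), and 5.81 and 6.16 (plasmablast). It was DE over the whole course alone, with -0.87 ± 0.11 (edgeR adjusted p = 0.0079). Rnf2 exceeded Ring1 in every library, by 7.01-fold and 4.32-fold at 3 h and by 2.25-fold to 3.01-fold elsewhere. The stages took up 0.861 of the variance of this log2 ratio (exact permutation test, one-sided, p = 0.0173 before and after adjustment). Leaving out any library other than those of 3 h ended the call. With a library left out, however, the test also counts arrangements that leave a 3 h library unpaired. These losses therefore cannot show that each library matters.

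Bmi1 and Cbx7, partners of these enzymes, behaved differently from each other. Bmi1 (chromosome 2, 18677018 to 18686629), a PCGF subunit that sustains stem and progenitor cells, had an RPKM of 18.0 and 19.9 (naive), 21.8 and 20.6 (3 h), 24.2 and 22.1 (10 h), 22.3 and 18.5 (33 h), 12.3 and 12.1 (expanded), and 17.9 and 18.3 (plasmablast). Only the expanded libraries lay apart from all others, below them. It was DE at no comparison (edgeR glmTreat), with a log2 fold change of -0.74 ± 0.10 from 33 h to expanded B cells (unadjusted p = 0.0226, adjusted p = 0.156, and 0.0236 without replicate 2 at 33 h) and of -0.07 over the whole course. DESeq2 called Bmi1 at that step and at the step from expanded B cells to plasmablasts, where the log2 fold change was 0.57. Bmi1 had the smallest span of the 10 genes, 1.90-fold between stage means. Cbx7 (chromosome 15, 79915804 to 79971143) had an RPKM of 35.6 and 33.0 (naive), 22.1 and 22.3 (3 h), 16.5 and 17.6 (10 h), 11.9 and 10.6 (33 h), 8.76 and 9.60 (expanded), and 14.2 and 12.8 (plasmablast). Its levels went down without overlap from naive cells to expanded B cells, in steps that did not pass glmTreat. Each of these steps passed edgeR's F-test for a change of any size, with adjusted p from 8.8e-05 to 0.0329. Cbx7 was DE over the whole course with -1.34 ± 0.10 (edgeR adjusted p = 2.2e-06). The annotated span of Cbx7 shares 2415 bases with Apobec3, and the library kit and the counting were not stated to keep strand, so reads of the shared bases cannot be told apart. Bmi1 held 44.0% of 6 PCGF genes in naive cells, 20.9% at 3 h and 34.4% in plasmablasts.

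**Figure D3:**
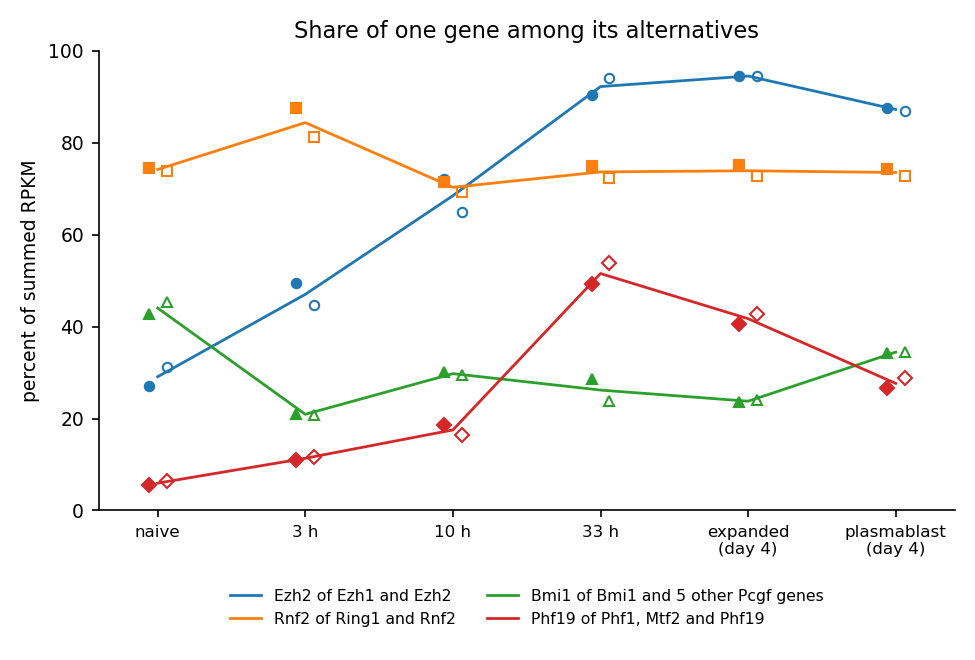
Share of a gene in the summed RPKM of itself and its alternatives in the same complex, in percent, by stage; filled symbols are replicate 1, open symbols replicate 2, and lines join the stage means. Ezh2 goes from 29.1% to 94.5% of the Ezh pair between naive and expanded B cells, while Rnf2 stays between 69.2% and 87.5% of the Ring pair.

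Counted over the 10 genes, the calls were few at each step and were read against the share of all 12750 genes. From naive cells to 3 h, 3 of 10 were DE upwards (Suz12, Phf19 and Rnf2; background 21%) and 0 downwards (background 24.3%), with 5 and 0 at an unadjusted p under 0.05 in edgeR and 5 and 1 by DESeq2. DESeq2 called 3277 of all genes upwards and 3674 downwards there. With library size alone the split of the 10 genes was 2 upwards and 1 downwards, Cbx7. From 3 h to 10 h, 1 was DE upwards (Ezh2; background 17.4%) and 2 downwards (Jarid2 and Rnf2; background 13.4%). From 10 h to 33 h, 2 were DE upwards (Ezh2 and Phf19; background 10.1%) and 1 downwards (Jarid2; background 4.45%). From 33 h to expanded B cells, 0 were DE by glmTreat in either direction (background 6.94% upwards and 3.66% downwards). At an unadjusted glmTreat p under 0.05 there was 1 (Bmi1), with 1 by DESeq2 and 7 by the F-test for a change of any size. Of all genes, DESeq2 called 1468 upwards and 1147 downwards there, and the F-test 2353 and 2700. From expanded B cells to plasmablasts, 0 were DE upwards (background 13.9%) and 3 downwards (Ezh2, Eed and Phf19, against a background of 12.2%). These are PRC2 genes, but the other PRC2 genes among the 10 were not DE there. Their log2 fold changes were 0.32 (Ezh1), -0.06 (Suz12) and 0.48 (Jarid2). Upwards, 0 had an unadjusted glmTreat p under 0.05, and DESeq2 called 2, Bmi1 and Cbx7, against 2492 of all genes. Over the whole course, 3 were DE upwards (Ezh2, Phf19 and Suz12; background 26.6%) and 5 downwards (Ezh1, Jarid2, Cbx7, Rnf2 and Ring1; background 23.4%). With library size alone this split was 2 and 6, with Eed called and Suz12 not. The median log2 fold change of the 10 genes over the whole course was -0.77, against 0.02 over all genes. It was 0.62 from naive cells to 3 h, against -0.03. All 10 differed between stages by the F-test over the 6 stages, with adjusted p from 6.2e-11 (Jarid2) to 3.3e-05 (Bmi1), and so did 96.7% of all genes tested.

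**Figure D4:**
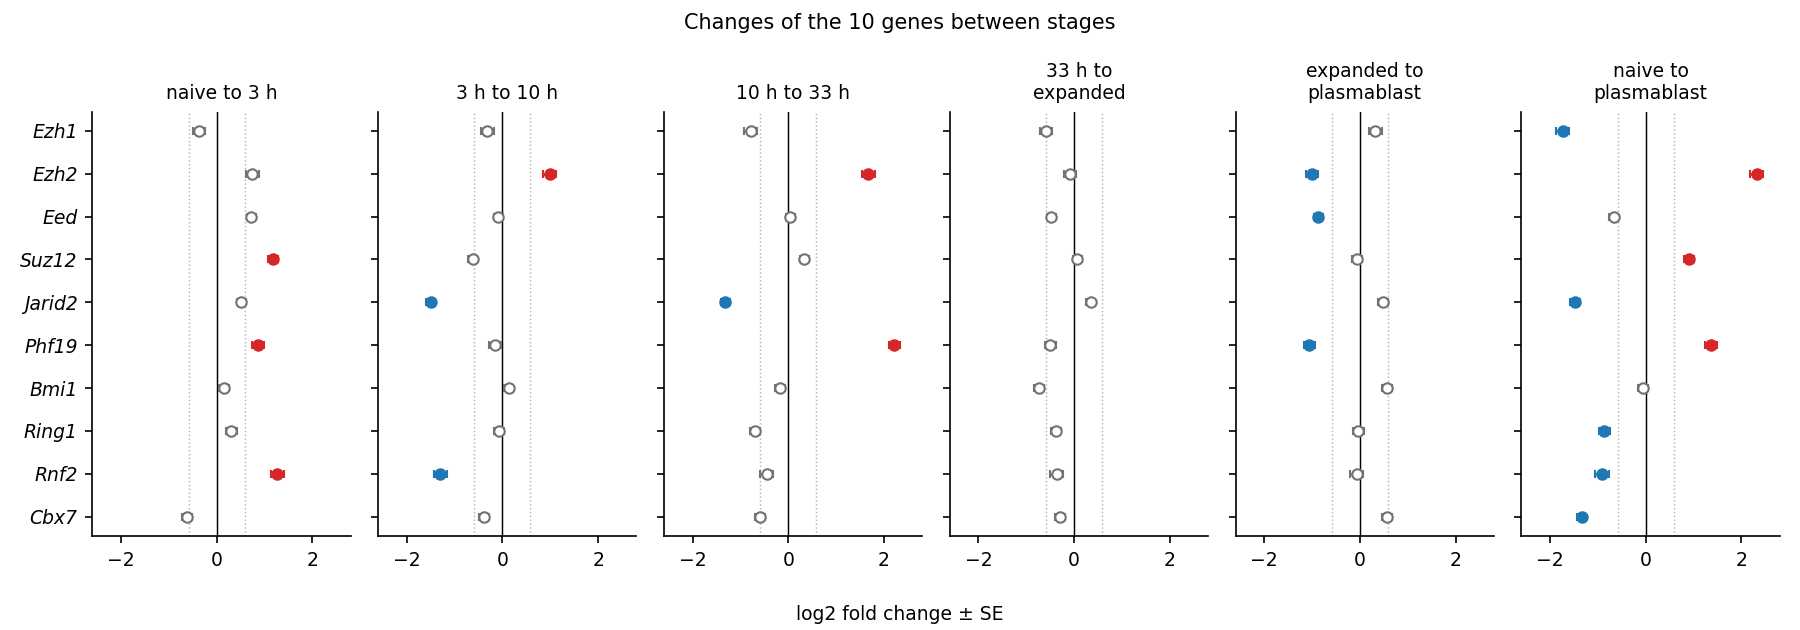
Log2 fold change ± SE (edgeR, n = 2 libraries per stage) of the 10 genes at the 5 consecutive transitions and over the whole course; red is DE upwards, blue DE downwards, open grey not DE, and dotted lines mark a fold change of 1.5. Ezh2 has the largest rise over the whole course (2.32) and Ezh1 the largest fall (-1.74), and no gene is DE from 33 h to expanded B cells.

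The rest of the Polycomb system was described from fixed lists: 9 other PRC2 genes, 24 other PRC1 genes, 10 genes of PR-DUB (the complex that removes the H2A mark) and 2 H3K27 demethylases. Of these 45 genes, 35 were tested, and the X-linked genes were among those left out. From naive cells to 3 h, 15 were DE upwards (42.9% of the 35, against 21% of all genes tested) and 4 downwards (11.4% against 24.3%), with a median log2 fold change of 0.42 against -0.03 for all genes. From 3 h to 10 h, 4 were DE upwards (11.4% against 17.4%) and 10 downwards (28.6% against 13.4%), with a median of -0.45 against 0.02. At the later steps the counts were smaller. They were 2 upwards and 1 downwards from 10 h to 33 h (5.71% and 2.86%, against 10.1% and 4.45%). From 33 h to expanded B cells they were 0 and 2 (5.71% downwards, against 6.94% of all genes upwards and 3.66% downwards). At an unadjusted edgeR glmTreat p under 0.05 they were 0 and 5, and by the F-test 2 and 14 (2353 and 2700 of all genes). From expanded B cells to plasmablasts they were 2 and 3 (5.71% and 8.57%, against 13.9% and 12.2%). The total was 1 from 33 h to expanded B cells without replicate 1 of either stage, and from expanded B cells to plasmablasts 2 without replicate 1 of the former or replicate 2 of the latter and 3 without replicate 1 of the latter. Over the whole course, 10 were DE upwards (28.6% against 26.6%) and 11 downwards (31.4% against 23.4%). The largest change was that of Kdm6b (JMJD3), a demethylase of H3K27, which had an RPKM of 12.3 and 10.6 (naive), 261 and 181 (3 h), 26.9 and 32.6 (10 h), 7.64 and 7.90 (33 h), 3.34 and 4.51 (expanded) and 2.79 and 2.90 (plasmablast). It rose by 4.27 ± 0.20 to 3 h (log2, edgeR adjusted p = 7.3e-09) and then fell by 2.89 to 10 h and fell by 1.94 to 33 h, down to 2.01 below naive cells at the end (-2.01 ± 0.19, adjusted p = 7.0e-06). The span of Kdm6b shares 4855 bases with Gm51903, a non-coding gene outside the count table. The other demethylase, Kdm6a, is X-linked and was not tested, and its stage means lay between 5.93 and 9.66.

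Among the PRC1 genes, Cbx6 was DE at 3 transitions: it fell by 2.03 to 3 h (SE 0.13, edgeR adjusted p = 1.3e-07), then rose by 1.22 and by 1.03 at the steps to 10 h and 33 h. Its span shares 10436 bases with Npcd, so that its counts are uncertain. Pcgf2 (Mel18), the closest relative of Bmi1, had the largest fitted change over the whole course, 3.28 ± 0.48 (edgeR adjusted p = 8.6e-05), but from only 11 and 1 counts in the naive libraries. The fit gave 2.57 without naive replicate 2 and 5.53 without naive replicate 1, and the counts summed over duplicates were 8.0-fold higher in plasmablasts (95% exact interval 4.38 to 16.0, counting error only). The next largest change was that of Phf1, -3.12 ± 0.26 (edgeR adjusted p = 8.6e-07), so that the order of the pair is not settled. The level of Pcgf2 was at most 0.732 RPKM in any library, against 12.1 or more for Bmi1. Phc1, a Polyhomeotic subunit, had the largest change from 33 h to expanded B cells, where it fell by 1.24 (SE 0.13, edgeR adjusted p = 6.2e-04). Lcorl, an accessory gene of PRC2, had the largest change from expanded B cells to plasmablasts, 1.55 ± 0.17 (edgeR adjusted p = 8.1e-05), with an RPKM of 0.834 and 0.907 against 2.54 and 2.57. It overlaps Ncapg by 3367 bases and the non-coding gene Gm3414 by 7912 bases, as well as pseudogenes.

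**Figure D5:**
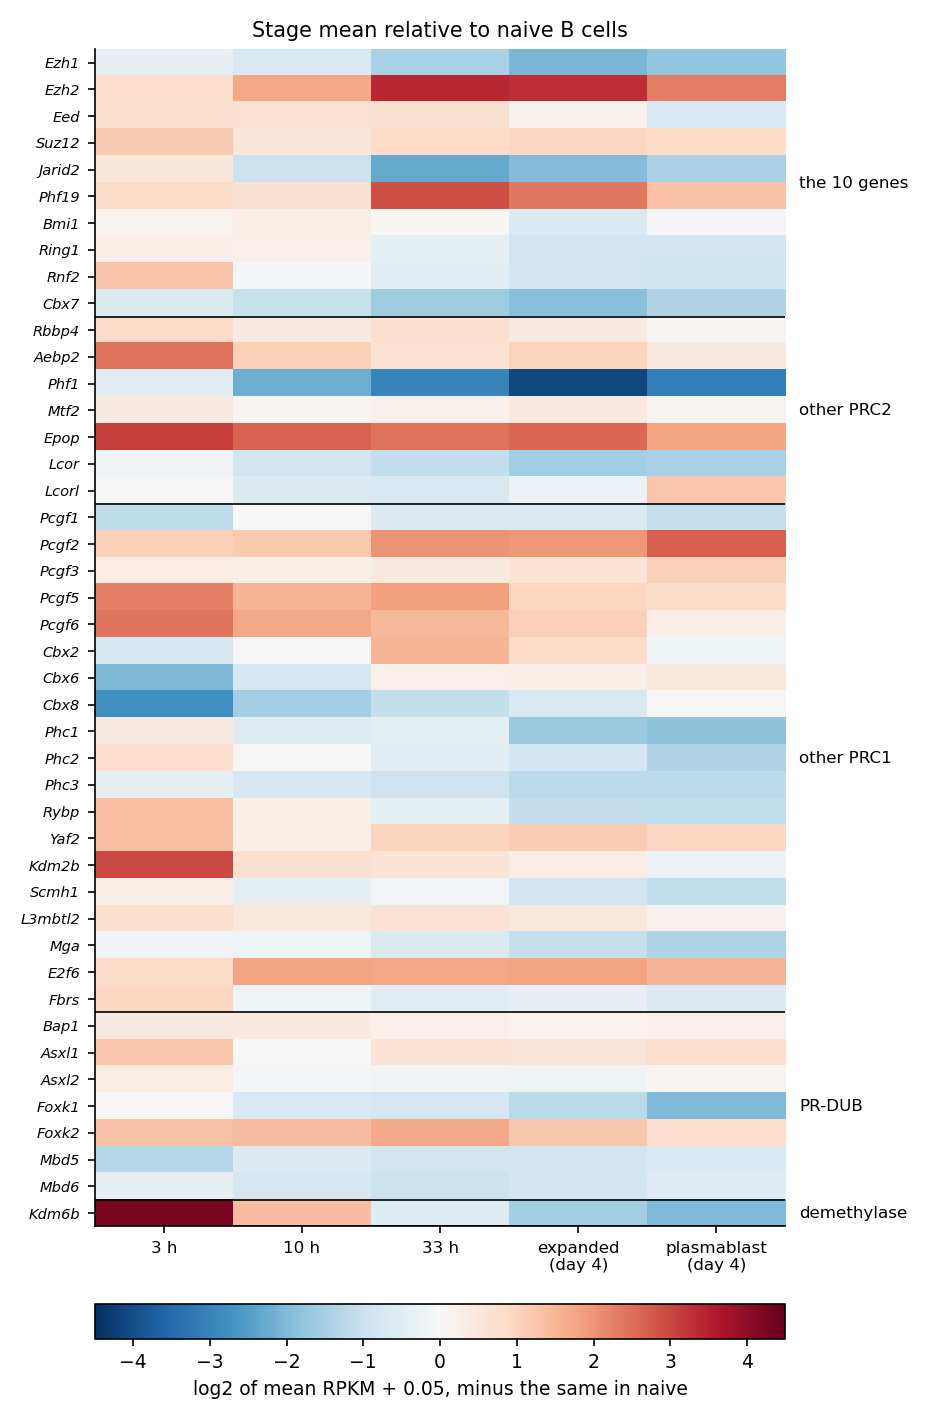
Log2 of the stage mean RPKM plus 0.05, minus the same in naive B cells, for the 10 genes and 34 of the 35 tested genes of the other Polycomb lists (rows) at the 5 later stages (columns); red is higher and blue lower than naive. The 3 h column is redder than the later ones for PRC1 genes such as Pcgf5, Pcgf6, Kdm2b and Rybp and for Kdm6b, while Ezh2 and Phf19 are reddest at 33 h.

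Genes known from textbooks as Polycomb targets were set beside these changes. They were Cdkn1a, Cdkn1c, Cdkn2a and Cdkn2b, which encode inhibitors of cyclin-dependent kinases, and Prdm1 and Irf4, which encode factors of plasma cell fate. All 6 were DE upwards from naive cells to plasmablasts (edgeR), as were 26.6% of all genes tested. Prdm1 and Irf4 are also on the list of 5 plasmablast markers. The log2 fold change was 1.08 for Cdkn1c, 2.32 for Irf4, 4.59 for Cdkn1a and 7.67 for Prdm1. Cdkn2a and Cdkn2b were at the floor in naive cells. Cdkn2a had 1 count in each naive library and 569 and 604 in plasmablasts, a 557-fold ratio of CPM (95% exact interval 154 to 4610, counting error only), and Cdkn2b had 1 and 0 counts against 171 and 240. Cdkn2a had an RPKM of 0.0260 and 0.0341 (naive), 0.0491 and 0.0578 (3 h), 0.421 and 0.489 (10 h), 1.40 and 2.16 (33 h), 44.7 and 39.2 (expanded) and 21.2 and 18.8 (plasmablast). It was low in the libraries of 33 h, where Ezh2 was at its highest range, and high in expanded B cells, where the range of Ezh2 overlapped that of 33 h. Any link between Cdkn2a and Ezh2 was not tested. Prdm1, which encodes BLIMP1, had an RPKM of 0.603 and 0.475 (naive), 6.42 and 11.5 (33 h), 44.6 and 48.4 (expanded) and 105 and 117 (plasmablast). Irf4 peaked early, at 709 and 519 at 3 h, and Cdkn1a was DE upwards at 3 transitions and downwards from 10 h to 33 h. Hox genes, the classical targets, stayed near silent: of 39 in the table, 21 had 0 counts in all 12 libraries, 33 had at most 3 counts in every library, and 1, Hoxb4, was tested. Hoxb4 had 21 to 226 counts per library and was DE at the step to 3 h alone, downwards (-1.30, edgeR).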

How the data were processed

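The authors sequenced TruSeq RNA libraries, used Rsubread for alignment to mm10 and featureCounts with its inbuilt Entrez annotation for counting; base calling used CASAVA 1.8.2 per the labels. The deposited values are raw counts per gene, with exon lengths and no normalization. Whether a read pair counted once is not given in the sources used here. Symbols and coordinates came from RefSeq (GRCm38.p6). After the study's methods, mitochondrial, ribosomal RNA, X, Y, immunoglobulin variable segment and unmatched genes were removed, which left 84.0% to 90.6% of counts per library, and filterByExpr kept 12750 genes. Total counts were 23026619 to 60585587.

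With R 4.3.3 and edgeR 4.0.16, TMM scaling, robust quasi-likelihood dispersions and a one-way layout over all 12 libraries were used with glmTreat at a fold change of 1.5 (Benjamini-Hochberg, 0.05); SE were derived from the F-statistic. RPKM used TMM-scaled sizes and the deposited lengths, and log2 RPKM a prior count of 0.5. Python 3.11.15 with numpy 2.4.6 and pandas 2.3.3 computed ratios and the permutation test. Alternatives included DESeq2 1.42.0, other scalings and filters, thinning, a replicate term and leaving out each library. Of the other Polycomb genes, those DE at 3 or more of the 5 transitions and the largest DE change per comparison were named, with all demethylases and textbook targets; for likeness, the 5 genes of highest Pearson correlation. The steps were tested on simulated data. The genes and lists were chosen with earlier results of these data known. Some items of the lists are not reported here.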

Additional observations from a re-analysis of the deposited data

How the results depend on the processing

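Of 20 DE calls of the 10 genes, 16 kept direction and call under all alternatives run, and the other 4 are given beside their values above. The counts of DE genes among the 10 at consecutive transitions (3, 3, 3, 0 and 3) moved with the test. DESeq2's Wald test gave 6 from naive cells to 3 h, 5 from 10 h to 33 h, 1 from 33 h to expanded B cells and 5 from expanded B cells to plasmablasts. The F-test for a change of any size, which drops the fold limit, gave 9, 5, 8, 7 and 6 in order. Of all genes, the F-test called 4419 upwards and 4633 downwards at the first step. At the following steps it called 4094 and 3848, 2964 and 2834, 2353 and 2700, and 3469 and 3787. Of all genes, DESeq2 called 3277 and 3674 at the first step, then 2766 and 2847, 2049 and 1184, 1468 and 1147, and 2492 and 2197. For the other Polycomb genes (19, 14, 3, 2 and 5), DESeq2 gave 22 from 3 h to 10 h and 8, 7 and 8 at the following steps, the F-test 29, 29, 17, 16 and 18, library size alone 9 at the last step, no filter on low counts 4 from 33 h to expanded B cells, and leaving out a library 1 to 3 there and 2 to 5 at the last step. For the 10 genes, leaving out a library gave 0 to 1 from 33 h to expanded B cells. For Rnf2 to Ring1 the share of variance between stages was 0.851 to 0.972 without a library. The call was lost in 10 of 12 such tests, whose arrangements can leave a 3 h library unpaired. The 5 genes most like Ezh2 and Ezh1 shared 0 and 1 genes with those by Spearman correlation. Library size alone shifted the median log2 fold change of all genes by -0.21 (naive to 3 h), 0.33 (3 h to 10 h), -0.34 (expanded to plasmablast) and -0.28 (whole course) relative to TMM, and reversed only log2 fold changes that were not DE: Bmi1 to 3 h (-0.052), Ezh1 (0.019), Eed (0.25), Phf19 (0.17) and Ring1 (0.26) from 3 h to 10 h, Eed from 10 h to 33 h (-0.019) and Ezh1 from expanded B cells to plasmablasts (-0.015). Without a library, the whole course of Bmi1 ranged from -0.14 to 0.0069, Eed from 10 h to 33 h from -0.028 to 0.11, Ezh2 from 33 h to expanded B cells from -0.22 to 0.077 and Ring1 from expanded B cells to plasmablasts from -0.12 to 0.046. Differences between replicates 1 and 2 were little correlated between stages (from -0.14 to 0.08 over 15 pairs of stages). With 1 such difference per stage, this cannot settle whether the replicate numbers pair the samples. A replicate block left the counts at 3, 3, 3, 0 and 3, 8 over the whole course and 10 for the stage effect, with an Ezh2 to Ezh1 share of 0.989. Where a call was lost, the cause was not tested unless stated. The lowest depth, 23026619 counts, did not limit these genes, since thinning all libraries to it changed no DE call of the 10.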
